A study of Mus musculus with 30 samples.

Results

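Forebrain gene expression after 12 weeks of clozapine was set against that of untreated mice, using the 10 arrays titled as clozapine treated and the 10 titled as untreated controls, 20 of the 30 arrays of the series. The animals were male C57BL mice, an inbred laboratory strain, and no genetic alteration is named for any group. Clozapine was given in the drinking water at 12 mg/kg/day, a dose that the labels relate to human use, and the controls received no drug. The remaining 10 mice received haloperidol at 1.6 mg/kg/day in the same way, although the note on the dose in their protocol names clozapine. RNA from the right forebrain of each mouse was hybridised to its own Affymetrix MOE430A array, which measures transcripts with sets of short probes (probe sets). The labels give an age of 4 weeks, which cannot be the age after 12 weeks of drug, and a tissue label that says left where the other labels say right.

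Clozapine is an atypical antipsychotic used for schizophrenia that does not respond to other drugs. It blocks serotonin, muscarinic, histamine and adrenergic receptors along with dopamine receptors, and it binds the dopamine D2 receptor more loosely than haloperidol does. The forebrain holds the cortex, striatum and hippocampus, where these receptors lie on neurons that signal through G proteins, calcium and protein kinases. Since the tissue was measured in bulk, fewer cells of a type and less RNA per cell cannot be told apart.

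The 12944 probe sets with a mean log2 value of at least 4 over all 30 arrays were tested, and those that name a single gene were averaged into 7576 genes. Among markers of forebrain cells the highest myelin gene was Mbp, at a mean of 14.14, and the highest astrocyte gene Clu, at 13.23. The highest striatal marker was the peptide gene Penk at 10.88, and the highest cortical and hippocampal one Nrgn at 11.26. In these 4 lists a mean of 10 was reached by 4 of 14, 6 of 17, 3 of 14 and 1 of 13 markers on the array. A mean of 4 was reached by 14, 17, 13 and 12 of them. None of the 9 blood and 8 pituitary markers on the array reached a mean of 4. The choroid plexus gene Ttr was at 13.75 and the calcium-binding protein gene Calb1 of cerebellar and other neurons at 10.45. Clustering by correlation gave groups of arrays that were spread unevenly over the treatments. There were 3 clozapine and 3 control arrays in cluster A, 1 and 4 in cluster B, and 5 and 2 in cluster C, while clozapine 7 and control 1 each stood alone. Haloperidol had 5 arrays in A, 3 in B and 0 in C. Cluster B held control 7 to 10, haloperidol 8 to 10 and clozapine 1, while clozapine 8 to 10 were in C. Cluster was thus partly confounded with treatment. Degraded RNA widens the 3' minus 5' difference, the gap between signals from both ends of Gapdh and Actb on the control probe sets, and this ran from 0.62 to 1.24 in the clozapine arrays (median 0.88) and from 0.47 to 1.36 in 9 control arrays, with control 1 at 4.09. The median over all 10 controls was 0.67.

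The comparison asked which forebrain transcripts differ after long-term clozapine. No gene passed the correction for multiple testing: limma called 0 of 12944 probe sets and 0 of 7576 genes (0%) at an adjusted p of 0.05, with every adjusted p rounding to 1. An unadjusted p under 0.05 was found for 563 probe sets (4.35%), of which 275 (2.12%) were higher and 288 (2.22%) lower with clozapine. Leaving out control 1 or control 5 raised the count of probe sets to 868 in either case. At the level of genes the count was 302 (3.99%), with 159 higher (2.1%) and 143 lower (1.89%). In 0 genes (0%) did the clozapine and control arrays form ranges that did not overlap. With arrays weighted by their quality (limma arrayWeights) 1731 probe sets and 874 genes were called, and with the same weights and the array cluster as a block 0 were. The values that follow are therefore descriptions of these mice, and no gene in them was called by the unweighted fit.

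Several probe sets of the same gene give repeat readings of its transcript within each array, although they share the RNA and can target different ends or splice forms. Of the 2853 genes with 2 or more tested probe sets, 762 (26.7%) had all of them higher with clozapine, 648 (22.7%) had all of them lower, and 1443 (50.6%) had probe sets in both directions. Among the 339 probe sets of such genes with an unadjusted p under 0.05, 71 (20.9%) had a companion for the same gene with p under 0.05 in the same direction, and 13 had a companion with p under 0.05 in the opposite one. All tested probe sets agreed in direction, with at least 2 at p under 0.05, in 22 genes (0.771%). These comprised 11 genes higher with clozapine (0.386%) and 11 lower (0.386%). The p-values of this contrast chose these 22 genes and so are not support for them. Their number changed by over 1.5 times when some single arrays were left out. It was 10, 13, 14 and 14 without control 7, 8, 9 and 10, 12 and 11 without clozapine 7 and 8, and 40 and 35 without control 1 and clozapine 1.

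**Figure D1:**
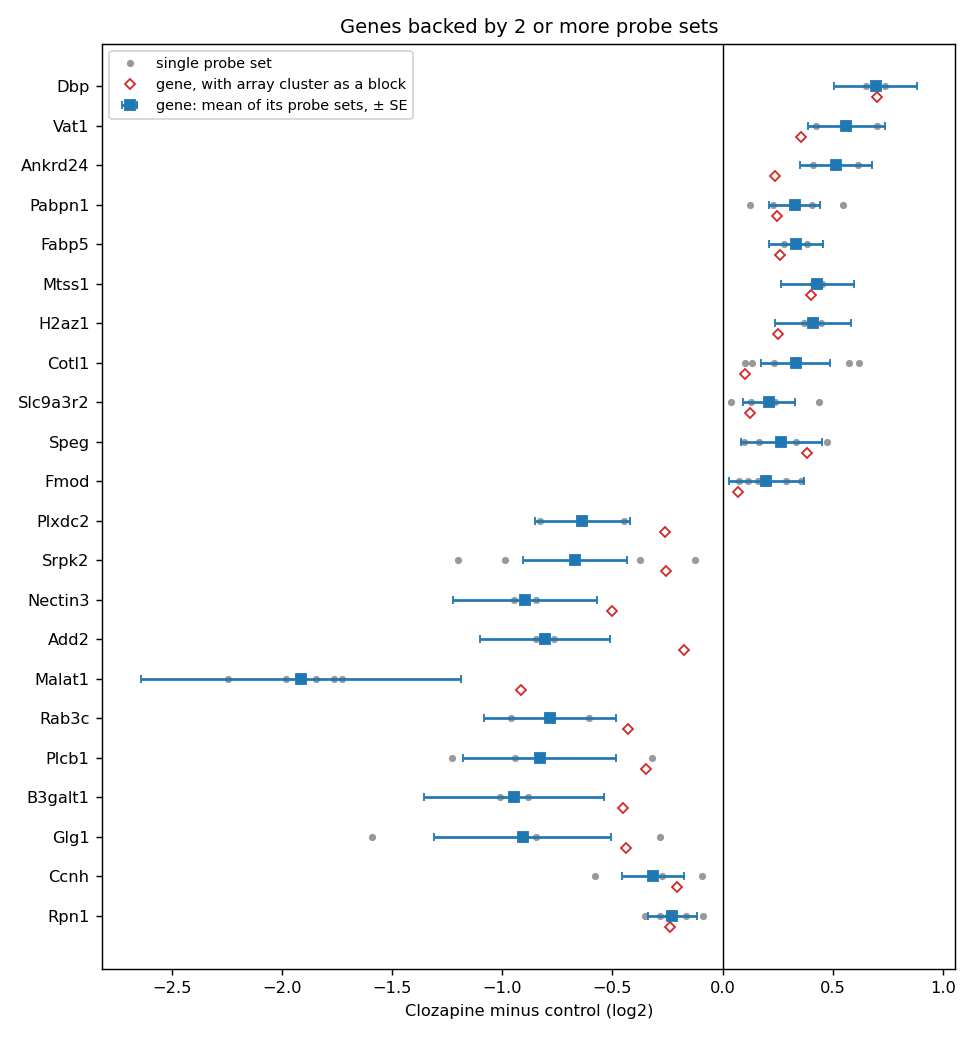
Clozapine minus control difference (log2, horizontal axis) for the 22 genes whose probe sets all differed in 1 direction with at least 2 at an unadjusted p under 0.05; squares are gene means with SE, grey points single probe sets, and open diamonds the gene with array cluster as a block. The differences run from -1.91 for Malat1 to 0.69 for Dbp, and the diamonds of most lower genes lie nearer to 0.

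The 22 genes are described by function, in groups formed after their values were seen. RNA metabolism held the largest difference. Malat1 is a long noncoding RNA retained in the nucleus, where it associates with the speckles that store splicing factors. Its values ran from 3.73 to 11.10 in the clozapine arrays (median 8.52) and from 8.01 to 11.35 in the controls (median 10.78). The lowest were clozapine 7 at 3.73, clozapine 8 at 5.92, clozapine 9 at 7.08 and clozapine 10 at 7.61, whereas clozapine 3, 4 and 5 were at 10.48, 11.10 and 10.97, among the controls. The mean difference was -1.91 (SE 0.73, limma unadjusted p = 0.0132), a level 3.76-fold lower, and all 5 probe sets had p under 0.05, with differences from -2.25 to -1.73. Outside the clozapine group, haloperidol 2 and 7 were also low, at 6.42 and 7.90, against 9.64 to 10.77 in the other 8 haloperidol arrays. With array cluster as a block the Malat1 difference was -0.92, and it was -0.34 within cluster A, -0.89 within C and -2.28 within B, where only 1 array is from a clozapine mouse. It was -2.07 with the 3' minus 5' difference as a covariate and -1.40 without clozapine 7.

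Srpk2, a kinase that phosphorylates the serine and arginine-rich splicing factors, had lowest, median and highest values of 7.68, 8.68 and 9.42 with clozapine against 8.42, 9.40 and 9.77 in controls. Clozapine 8 and 7 were lowest and the 4 controls of cluster B highest, and the ranges overlapped. The difference was -0.67 (SE 0.24, limma unadjusted p = 0.00796). Its 4 probe sets were uneven: 2 gave -1.20 and -0.99, the other two -0.37 and -0.12. The gene's difference was -0.26 with array cluster as a block.

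Pabpn1 encodes the nuclear poly(A)-binding protein, which sets the length of poly(A) tails. It lay from 9.93 to 10.67 in the clozapine arrays (median 10.29) and from 9.30 to 10.21 in the controls (median 10.11). Clozapine values above every control were seen in 6 of 10 arrays, while control 1 stood well below the other controls at 9.30. The difference was 0.33 (SE 0.11, limma unadjusted p = 0.00764), or 0.25 without control 1, and the 4 probe sets gave 0.12 to 0.55. Pabpc1, the cytoplasmic protein that binds the same tails, was measured by 1 probe set and ran from 9.42 to 10.75 in the clozapine arrays (median 10.46) and from 10.43 to 11.07 in the controls (median 10.65). The values of Pabpc1 overlapped too, with 5 clozapine arrays below every control and a difference of -0.43 (SE 0.16, limma unadjusted p = 0.0131), opposite in sign to that of Pabpn1. Its difference was -0.23 with array cluster as a block.

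Ccnh encodes cyclin H, which with the kinase Cdk7 and the assembly factor Mnat1 forms the part of transcription factor TFIIH that phosphorylates RNA polymerase II. Ccnh ran from 7.94 to 8.51 in the clozapine arrays (median 8.09) and from 7.98 to 8.82 in the controls (median 8.43), and 9 of 10 clozapine arrays lay below the control mean. The difference was -0.31 (SE 0.14, limma unadjusted p = 0.032), with 3 probe sets at -0.58, -0.27 and -0.095. The other TFIIH genes were looked up after this value was seen. Of 10 TFIIH genes 7 were tested, 5 were lower and 3 of these had an unadjusted p under 0.05, against 1.89% of all genes. The 3 include Ccnh, the gene that prompted the look-up, and with array cluster as a block only Cdk7 of the 3 kept an unadjusted p under 0.05. Cdk7 had a mean of 4.33 ± 0.35 (SD, n = 10) with clozapine against 4.79 ± 0.38 in controls, a difference of -0.46 (SE 0.14, limma unadjusted p = 0.00258). Gtf2h1, a core subunit, had 6.81 ± 0.65 against 7.37 ± 0.29, a difference of -0.56 (SE 0.22). Cdk7 and Gtf2h1 rested on 1 probe set each, and Cdk7 lay close to the filter of 4. Mnat1 and Ercc3, a DNA helicase, differed by -0.096 and -0.09, and Gtf2h3 and Gtf2h4 by 0.047 and 0.053, all within 1 SE. In that fit Cdk7 had -0.31 (unadjusted p = 0.00672), Ccnh -0.21 (0.0779) and Gtf2h1 -0.30 (0.144), and Gtf2h4 turned to -0.099.

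At the synapse and the neuronal surface 4 genes were lower with clozapine and 1 was higher. Rab3c, a small GTPase of synaptic vesicles, had a median of 7.30 with clozapine (range 6.48 to 7.81) and 8.03 in controls (range 6.91 to 9.03). The 4 controls of cluster B, at 8.81 to 9.03, were the highest arrays, and control 1 was below most clozapine arrays. The difference was -0.78 (SE 0.30, limma unadjusted p = 0.0134), and it was -0.43 with array cluster as a block. Plcb1, the phospholipase C that Gq-coupled receptors activate, ran from 4.36 to 6.52 in the clozapine arrays (median 5.22) and from 4.99 to 7.43 in the controls (median 6.09). Its difference of -0.83 (SE 0.35, limma unadjusted p = 0.0236) had the control mean above 9 of 10 clozapine arrays and became -0.35 with the block.

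Nectin3, an adhesion molecule of contacts between axons and dendrites, had lowest, median and highest values of 4.68, 6.17 and 7.41 with clozapine against 5.43, 7.38 and 8.07 in controls. Clozapine 6 and control 4 were the lowest arrays of their groups, and the groups overlapped. The difference was -0.90 (SE 0.33, limma unadjusted p = 0.00966), and it lay between -0.54 and -0.46 in each of the 3 clusters, and was -0.50 with cluster as a block. Add2 encodes beta-adducin, which joins spectrin to actin filaments under the membrane. It ran from 4.30 to 6.80 in the clozapine arrays (median 5.62) and from 4.95 to 7.35 in the controls (median 6.77), a difference of -0.80 (SE 0.30, limma unadjusted p = 0.0107). The Add2 difference with cluster as a block was -0.18, the smallest of the 11 lower genes, and within cluster C it was 0.29.

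Vat1, an oxidoreductase first described as a protein of synaptic vesicle membranes, was the gene of the 22 with the least overlap between groups. Its values ran from 5.75 to 6.70 in the clozapine arrays (median 6.04) and from 5.20 to 5.85 in the controls (median 5.72). Above every control lay 9 of 10 clozapine arrays, the exception being clozapine 1. The difference was 0.56 (SE 0.18, limma unadjusted p = 0.00334), or 1.48-fold. The 5 highest clozapine arrays were clozapine 6 to 10, and within clusters the difference was 0.13 in A, 0.28 in B and 0.75 in C. With the cluster as a block it was 0.35.

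Higher with clozapine were 4 genes of actin binding and membrane scaffolds. Mtss1 binds actin and bends the plasma membrane, and in the cerebellum it shapes Purkinje cell dendrites. Mtss1 ran from 6.89 to 7.89 in the clozapine arrays (median 7.18) and from 6.14 to 7.86 in the controls (median 6.87). Control 1 was set apart from the other controls, which ended at 6.94, and all 10 clozapine arrays lay above the control mean. The difference was 0.43 (SE 0.16, limma unadjusted p = 0.0141) with control 1 and 0.54 without it. It was similar in each cluster, at 0.35 in A, 0.54 in B and 0.39 in C.

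Cotl1, coactosin-like protein, binds actin filaments and is abundant in microglia. It had a median of 6.78 with clozapine (range 6.57 to 7.61) and 6.60 in controls (range 6.35 to 7.19). Clozapine 8 was highest and control 4 was high for its group, at 7.19. The Cotl1 difference was 0.33 (SE 0.16, limma unadjusted p = 0.0409), but 0.10 with array cluster as a block. Slc9a3r2, the PDZ scaffold NHERF2 that ties channels and receptors to the cytoskeleton, differed by 0.21 (SE 0.12, limma unadjusted p = 0.0814), with lowest, median and highest values of 5.97, 6.01 and 6.52 with clozapine against 5.70, 5.84 and 6.12 in controls. Clozapine 7 was the highest array, and the difference was 0.16 without it. Ankrd24, an ankyrin-repeat protein, ran from 6.84 to 8.04 in the clozapine arrays (median 7.39) and from 6.19 to 7.43 in the controls (median 6.92). Its difference of 0.51 (SE 0.16, limma unadjusted p = 0.00349) was 0.48 in cluster C and 0.072 and 0.073 in A and B, and 0.24 with the block.

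Among the other lower genes, 3 have roles in the Golgi or in glycan assembly. B3galt1 transfers galactose to glycan chains, and it ran from 3.56 to 5.92 in the clozapine arrays (median 4.68) and from 3.80 to 6.75 in the controls (median 6.25). Clozapine 7 and control 1 were the lowest of their groups. Its difference was -0.95 (SE 0.41, limma unadjusted p = 0.0272), and -0.45 with array cluster as a block. Glg1, a Golgi sialoglycoprotein, had lowest, median and highest values of 4.97, 8.36 and 8.77 with clozapine against 7.34, 8.66 and 9.37 in controls. Clozapine 7 at 4.97 and clozapine 8 at 6.29 were far below the other clozapine arrays, which began at 7.65. The difference was -0.91 (SE 0.40, limma unadjusted p = 0.0311) over all arrays and -0.59 without clozapine 7, and -0.44 with array cluster as a block. Rpn1 encodes ribophorin I of the oligosaccharyltransferase, which attaches glycans to new proteins in the endoplasmic reticulum. It spanned a narrow range, from 8.99 to 9.89 in the clozapine arrays (median 9.40) and from 9.43 to 9.90 in the controls (median 9.66). 5 clozapine arrays lay below every control, the difference was -0.23 (SE 0.11, limma unadjusted p = 0.0532), and with array cluster as a block it was -0.24.

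The other genes backed by more than 1 probe set had varied roles. Dbp, a transcription factor driven by the circadian clock, had a median of 9.23 with clozapine (range 8.86 to 9.56) and 8.58 in controls (range 7.69 to 9.34), and all 10 clozapine arrays were above the control mean. The gene-level difference of 0.69 (SE 0.19, limma unadjusted p = 0.000809) was 0.70 with array cluster as a block, and it was positive within A, B and C. Fabp5, a fatty acid carrier of glia and developing neurons, ran from 9.91 to 10.81 in the clozapine arrays (median 10.34) and from 9.63 to 10.19 in the controls (median 10.04) and differed by 0.33 (SE 0.12, limma unadjusted p = 0.0103). H2az1, the histone variant H2A.Z, had lowest, median and highest values of 10.12, 10.66 and 11.55 with clozapine against 9.88, 10.33 and 10.75 in controls. The groups overlapped for both genes, with 6 and 3 clozapine arrays above every control, and the H2az1 difference was 0.41 (SE 0.17, limma unadjusted p = 0.0245). Its cluster C value was 0.48, against 0.05 in A and 0.25 with the block.

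Speg, a kinase known from striated muscle, and Fmod, fibromodulin, a collagen-binding proteoglycan, were at the lower end of the 22 by size. Speg ran from 6.14 to 6.91 in the clozapine arrays (median 6.61) and from 5.86 to 7.12 in the controls (median 6.36) with a difference of 0.27 (SE 0.18, limma unadjusted p = 0.157), which was 0.38 with array cluster as a block. Fmod ran from 5.21 to 6.34 in the clozapine arrays (median 5.65) and from 5.06 to 5.80 in the controls (median 5.52) with a difference of 0.20 (SE 0.17, limma unadjusted p = 0.252), 0.069 with the block and 0.13 without clozapine 6. No Speg value with clozapine exceeded the highest control. Plxdc2, a membrane protein with a plexin-like domain, had a median of 5.86 with clozapine (range 5.29 to 6.57) and 6.76 in controls (range 5.54 to 7.18). Its difference was -0.64 (SE 0.22, limma unadjusted p = 0.00592) over all arrays, but 0.015 within cluster C and -0.26 with the block.

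The sizes of these differences moved with the array clusters. The clusters came from the same probe set values as the fit and were uneven between the groups. A block on them can therefore also take out part of a difference between treatments. With cluster as a block all 22 genes kept their direction, 19 had a smaller difference, 10 had a difference reduced to 0.5 times or less, and 12 had an unadjusted p under 0.05. The rule on several probe sets was met by 34 genes in that fit, 7 of them among the 22. Within cluster A, which holds 3 clozapine and 3 control arrays, 20 of the 22 kept their direction. The smallest limma adjusted p among them with the block was 0.49. Probe sets whose identifier ends in _x_at or _s_at may also bind transcripts of related genes. Without those sets 13 genes met the same rule, 2 higher and 11 lower, and 10 of the 13 were among the 22. Dbp and Vat1 no longer met it, each having such a set among its 2 tested sets.

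By the mean over probe sets 26 genes were lower by more than 1 on the log2 scale and 1, Rpgrip1, was higher. This count rested on single arrays and on the fit. It was 9 without clozapine 7 and 10 without clozapine 8, 42 without clozapine 4 or 5, 44 without control 4 and 49 without control 1. The same count was 39 with the 3' minus 5' difference as a covariate, 49 without control 1, haloperidol 2 and haloperidol 7, and 2 with array cluster as a block. Array weights gave 102 lower and 9 higher. Of the 26 genes, 18 rested on 1 probe set and 15 had an unadjusted p under 0.05. Apart from Malat1, Map1b, Cplx2 and Cx3cr1, they are named here because their values were seen. They included Cbl, a ubiquitin ligase that acts on receptor tyrosine kinases, with 5.73 ± 2.12 (SD, n = 10) under clozapine against 7.52 ± 0.47 and a difference of -1.79 (SE 0.59). Ago2 and Tnrc6b, partners in silencing by microRNAs, differed by -1.69 (SE 1.01) and -1.28 (SE 0.53). Ddx6, an RNA helicase of the same silencing machinery, differed by -1.15 (SE 0.67). Neuronal genes in the set were Camk2a, a calcium-dependent kinase of the postsynaptic side, at -1.50 (SE 0.99), Cplx2, a regulator of vesicle fusion, at -1.39 (SE 0.84) and -0.79 without clozapine 7, and Gad2, which makes GABA, at -1.34 (SE 0.50). Map1b, a microtubule-associated protein of axons, was at -1.15 (SE 0.51). Oip5os1, another long noncoding RNA, was at -1.21 (SE 0.43) from 1 probe set. Its mean was 3.81 with clozapine and 5.01 in controls, so it passed the filter of 4 through the arrays of the other groups.

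The 26 genes were chosen by this same contrast, so a low level with clozapine follows from the choice and is not support for it. Within the clozapine group the same arrays were low across these genes. Their mean was 3.66 in clozapine 7, 4.43 in clozapine 8, 5.35 in clozapine 9 and 5.29 in clozapine 10. In clozapine 3, 4 and 5, all of cluster A, it was 7.52 to 8.09, beside 6.36 to 8.08 in the controls. The group medians were 6.77 with clozapine, 7.91 in controls and 7.53 with haloperidol. The 3' minus 5' difference was 1.24, 1.22, 0.82 and 1.05 in clozapine 7 to 10 and 0.62 to 0.76 in clozapine 3, 4 and 5. With that difference as a linear covariate all 26 genes were still lower and 20 had an unadjusted p under 0.05. Control 1, at a far wider 4.09, had a mean of 6.36. It weighs heavily in that fit, which says little about the narrower range of most other arrays. Haloperidol 2 and 7 had 3' minus 5' differences of 1.10 and 2.45 and means of 5.66 and 5.15. The other haloperidol arrays had 0.47 to 0.76 and means of 7.36 to 7.87. The part of RNA quality in these values was not tested. With array cluster as a block all 26 genes were still lower, with differences of -1.37 to -0.24, 10 of them had an unadjusted p under 0.05, and only 2 were lower by more than 1.

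**Figure D2:**
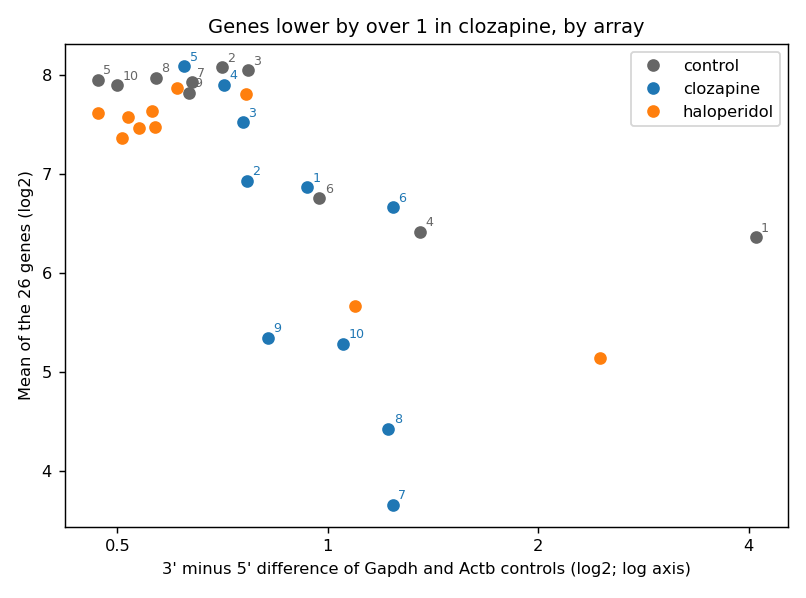
Mean level of the 26 genes lower by more than 1 (log2, vertical axis) against the 3' minus 5' difference of the array (log2, on a log axis), 1 point per array, numbered for clozapine and control. Clozapine 7 to 10 lie at 3.66 to 5.35, below every control (6.36 to 8.08), and clozapine 3 to 5 lie at 7.52 to 8.09. The 26 genes were chosen by this same contrast, so lower clozapine values follow from the choice.

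Functions outside neurotransmitter receptors and the clock were then described through 30 lists of genes, each read against all 7576 genes, of which 56.4% were higher with clozapine and whose median difference was 0.025. No list held a called gene. The counts below are members by direction of the mean difference, with the number at an unadjusted p under 0.05 to be read against 2.1% of all genes higher and 1.89% lower.

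**Figure D3:**
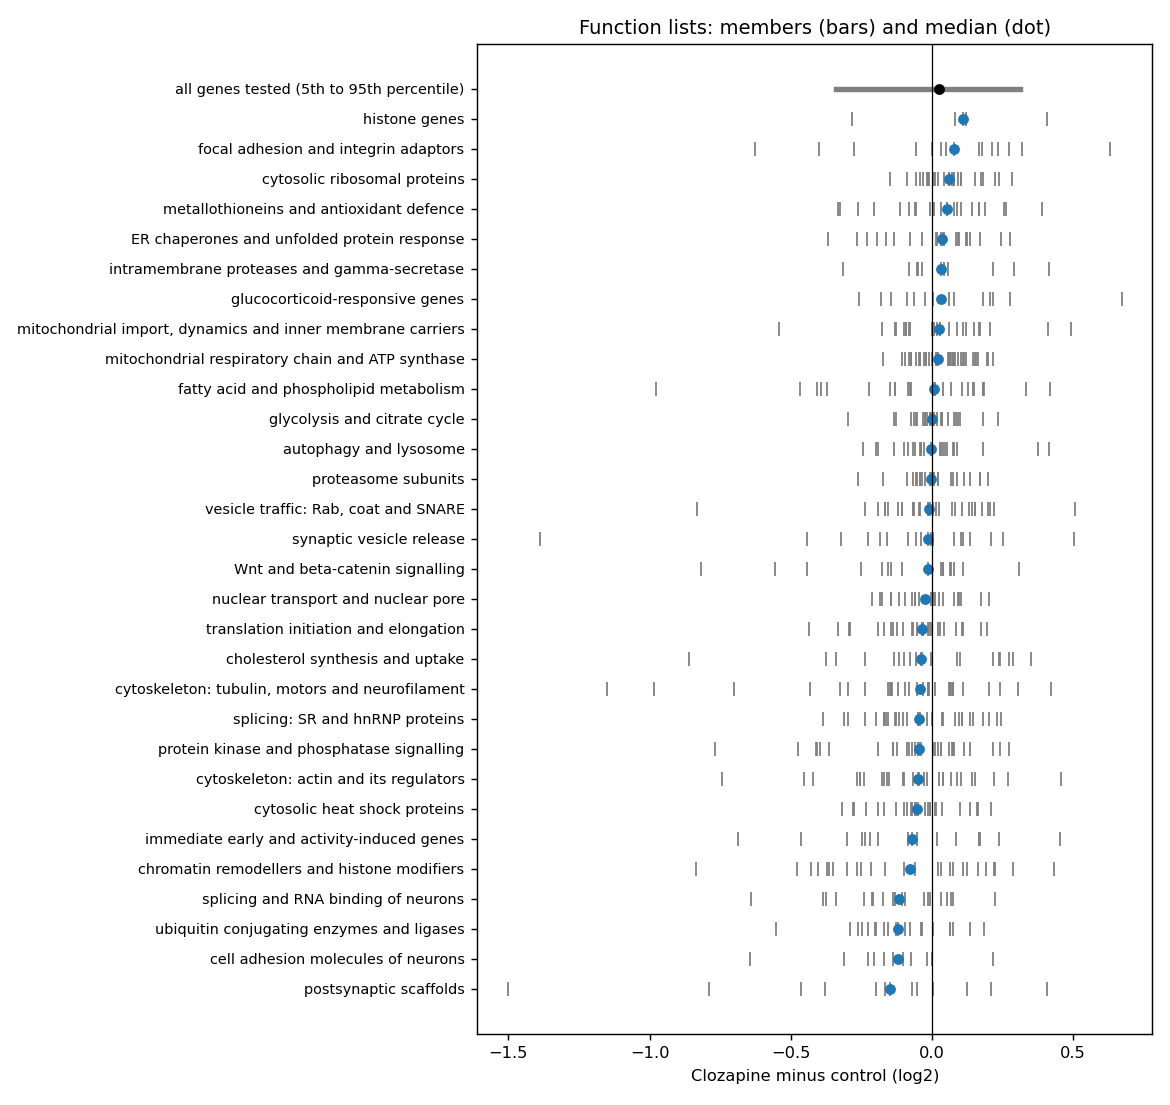
Clozapine minus control difference (log2, horizontal axis) of each tested gene in 30 function lists, with bars for genes, a dot for the list's median and a grey band for the 5th to 95th percentile of all genes. List medians run from -0.15 for postsynaptic scaffolds to 0.11 for histone genes, against 0.025 for all genes.

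Of 12 adhesion molecules of neurons 10 were lower, with a median of -0.12 and 1 at p under 0.05. This was the protocadherin Pcdh7, which ran from 4.66 to 6.40 in the clozapine arrays (median 5.26) and from 4.69 to 6.66 in the controls (median 6.23) and differed by -0.64 (SE 0.28), or -0.24 with array cluster as a block and -0.089 within cluster C. Next came Dscam, an adhesion molecule of neurite spacing, at -0.23 (SE 0.13), which was -0.11 without clozapine 7 and -0.045 with the block. In the same blocked fit the median of the list was 0.01. Of 13 postsynaptic scaffolds 9 were lower, with a median of -0.15 (-0.039 with the block). The scaffold Shank3, which organises excitatory synapses, went the other way with lowest, median and highest values of 9.54, 9.93 and 10.63 with clozapine against 7.97, 9.77 and 10.05 in controls. Control 1 was far below the other controls, and the Shank3 difference of 0.41 (SE 0.19) was 0.23 without it. Synaptic vesicle release was lower in 11 of 19 genes with a median of -0.012, which was 0.012 with the block and -0.10 without control 1. In vesicle traffic, with 19 of 34 lower and a median of -0.011 (-0.033 with the block), Ap2b1, a clathrin adaptor subunit, ran from 7.34 to 9.43 in the clozapine arrays (median 8.18) and from 7.52 to 9.88 in the controls (median 8.97) and differed by -0.83 (SE 0.33), with 0.13 in cluster A.

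Of 15 integrin adaptors 10 were higher, beside 56.4% of all genes, with a median of 0.077 that was 0.031 without control 1. The tyrosine kinase Src ran from 6.37 to 8.11 in the clozapine arrays (median 7.55) and from 6.07 to 7.37 in the controls (median 6.65), with 6 clozapine arrays above every control and a difference of 0.63 (SE 0.24). Its 2 probe sets gave 0.95 and 0.31. Lims1, an adaptor that links integrins to actin, lay the other way, from 4.67 to 6.05 in the clozapine arrays (median 5.43) and from 5.68 to 6.59 in the controls (median 5.89). Below every control were 7 clozapine arrays, and the Lims1 difference was -0.63 (SE 0.18), or -0.32 with array cluster as a block. The tested probe sets of Lims1 gave -1.06 (SE 0.28) and -0.20 (SE 0.17). Of 29 genes of actin and its regulators 18 were lower, among them Tmod2, which caps actin filaments in neurons, at -0.45 (SE 0.19). Tubulin, motor and neurofilament genes were lower in 19 of 30.

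Of 20 neuronal RNA-binding and splicing genes 15 were lower, with a median of -0.12 that was -0.041 with array cluster as a block, and Elavl1, which stabilises messages, was at -0.39 (SE 0.16). SR and hnRNP splicing proteins were lower in 18 of 31 with a median of -0.045. In that list Hnrnpa1 was higher at 0.25 (SE 0.10) and U2af1, which recognises the 3' splice site, was lower at -0.38 (SE 0.18). Within clusters A, B and C the U2af1 difference was -0.0002, -0.025 and -0.83, and it was -0.26 without clozapine 9. Initiation and elongation factors were lower in 19 of 27, with a median of -0.036 (-0.095 with the block) and 2 at p under 0.05, Pabpc1 and Eif3c. Eif3c, a subunit of the factor that brings the small ribosomal subunit to messages, ran from 8.85 to 9.68 in the clozapine arrays (median 9.15) and from 9.14 to 9.74 in the controls (median 9.50) and differed by -0.29 (SE 0.11). Ribosomal proteins were higher in 18 of 26 with a median of 0.06 (0.011 with the block) and the smallest p for Rpl38 at 0.17 (SE 0.08).

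Chromatin genes were lower in 14 of 26 with a median of -0.079, or -0.035 with array cluster as a block. The remodellers Atrx and Smarca2 differed by -0.84 (SE 0.38) and -0.43 (SE 0.18), and these became -0.16 and -0.12 with array cluster as a block. Of 5 histone genes 4 were higher, H2az1 among them. Nuclear transport genes were lower in 12 of 22 with a median of -0.025.

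Ubiquitin enzymes and ligases were lower in 15 of 21, with a median of -0.12 that was -0.038 with array cluster as a block. Mylip, the ligase that sends the LDL receptor for degradation, ran from 5.29 to 5.999 in the clozapine arrays (median 5.83) and from 5.85 to 6.76 in the controls (median 6.39). Below every control were 8 of 10 clozapine arrays, and the Mylip difference, from 1 probe set, was -0.55 (SE 0.14, limma unadjusted p = 0.000593). It was -0.43, -0.60 and -0.37 within clusters A, B and C. The proteasome was lower in 13 of 25 subunits and the autophagy and lysosome list in 14 of 25, with medians of -0.0047 and -0.0046. Cytosolic heat shock proteins were lower in 18 of 26 (median -0.054), whereas chaperones of the endoplasmic reticulum were higher in 14 of 22 (median 0.037).

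Among intramembrane proteases, which cut proteins within the membrane, 6 of 11 were higher. The signal peptide peptidase H13 ran from 5.52 to 6.48 in the clozapine arrays (median 5.94) and from 5.25 to 5.80 in the controls (median 5.60), with 8 clozapine arrays above every control. Its difference averaged over 2 probe sets was 0.42 (SE 0.11, limma unadjusted p = 0.000869) and 0.32 with array cluster as a block. The 2 sets were uneven: the weaker, at a mean level of 4.66, gave 0.65 (SE 0.16). The stronger, at 6.89, gave 0.19 (SE 0.14). The related protease Sppl2a was lower at -0.31 (SE 0.14) over its 2 probe sets, which gave -0.53 and -0.093.

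In the lists of energy and lipid metabolism the members at an unadjusted p under 0.05, to be read against 3.99% of all genes, were 1 of 41 for the respiratory chain and ATP synthase, 2 of 24 for mitochondrial import and 0 of 27 for glycolysis and the citrate cycle. They were 2 of 20 for cholesterol and 3 of 25 for fatty acids and phospholipids, and these 5 went both ways. The respiratory chain and ATP synthase were higher in 26 of 41 genes with a median of 0.021, Sdhb of complex II at 0.22 (SE 0.10). Mitochondrial import, dynamics and carriers were higher in 15 of 24. Mpv17l, a small protein of mitochondria and peroxisomes, ran from 6.35 to 7.33 in the clozapine arrays (median 6.98) and from 5.84 to 7.001 in the controls (median 6.45). The Mpv17l difference, from 1 probe set, was 0.49 (SE 0.14, limma unadjusted p = 0.00118). Timm44, which couples the import motor to its channel, was at 0.41 (SE 0.18). The Timm44 value was 0.19 with array cluster as a block, and -0.10, 0.16 and 0.48 within clusters A, B and C. Glycolysis and the citrate cycle were higher in 14 of 27 genes, with a median of 0.0015. Cholesterol synthesis and uptake was lower in 12 of 20, with a median of -0.037. Its members went both ways: Mvk, mevalonate kinase, was at 0.35 (SE 0.16), and Stard4, which carries cholesterol between membranes, at -0.86 (SE 0.35). Stard4 ran from 3.93 to 6.54 in the clozapine arrays (median 5.97) and from 4.97 to 7.14 in the controls (median 6.82), and all 10 clozapine arrays were below the control mean. In the fatty acid and phospholipid list 13 of 25 were higher. Cpt1a, which admits fatty acids to mitochondria, had 0.33 (SE 0.14) and Agpat3, an enzyme of phospholipid synthesis, had -0.47 (SE 0.18).

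In the stress and signalling lists, Mt2, a metallothionein that binds zinc and copper, had a median of 10.13 with clozapine (range 9.97 to 10.52) and 9.72 in controls (range 9.54 to 10.39), and all 10 clozapine arrays lay above the control mean. Its difference, from 1 probe set, was 0.39 (SE 0.12, limma unadjusted p = 0.00216) and 0.39 with array cluster as a block. Mt1 and Mt3 both differed by 0.17, with SEs of 0.12 and 0.20, and 14 of the 23 metallothionein and antioxidant genes were higher. Of 17 activity-induced genes 10 were lower with a median of -0.07. Egr1, a transcription factor induced by neuronal activity, was higher, with lowest, median and highest values of 11.21, 11.35 and 11.70 with clozapine against 10.62, 11.20 and 11.49 in controls. The Egr1 difference was 0.24 (SE 0.10), or 0.17 with array cluster as a block, and 0.16, 0.42 and -0.05 within clusters A, B and C. Glucocorticoid-responsive genes were higher in 8 of 14 (median 0.031). Kinase and phosphatase signalling was lower in 18 of 32 (median -0.048), and Wnt signalling in 9 of 17 (median -0.013).

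Cell type markers gave no called gene either. Microglial markers were lower in 9 of 14 with a median of -0.014. The fractalkine receptor gene Cx3cr1, which microglia express, ran from 3.81 to 8.71 in the clozapine arrays (median 7.85) and from 7.78 to 8.84 in the controls (median 8.30). Clozapine 7 was far below the others at 3.81, and the difference was -1.06 (SE 0.39), or -0.67 without it and -0.49 with array cluster as a block. Astrocyte markers were lower in 11 of 17 (median -0.061), Fgfr3, a growth factor receptor, at -0.50 (SE 0.17) and Sox9, a transcription factor of glia, at 0.25 (SE 0.11). The probe sets of Fgfr3 gave -0.79 (SE 0.37) at a mean level of 4.10 and -0.21 (SE 0.18) at 8.19. Myelin markers were lower in 9 of 14 (median -0.087), and vascular markers were higher in 8 of 15 (median 0.026), with Flt1, a receptor for VEGF, at -0.37 (SE 0.18). Striatal markers were higher in 8 of 13 (median 0.065, and 0.0061 with the block), though Rarb, a retinoic acid receptor of striatal neurons, was at -0.44 (SE 0.18). Cortical and hippocampal markers were higher in 7 of 12 and choroid plexus markers in 4 of 5, and olfactory bulb and deep forebrain and midbrain markers were lower in 6 of 8 and 6 of 10.

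Of 12 cerebellar markers on the array 6 reached the filter of 4, Calb1 of cerebellar and other neurons among them. All 6 tested genes were higher, with a median of 0.16 and 0.18 without control 1. Their mean level per array ran from 6.40 to 6.96 with clozapine and from 6.02 to 6.65 in controls, so the groups overlapped. The glutamate transporter gene Slc1a6 of Purkinje cells had the largest of these differences, 0.39, which was 0.20 without control 5. The other 5 ran from 0.066 to 0.21, and none of the 6 had an unadjusted p under 0.05. Mtss1, described above, is also strong in Purkinje cells, and the part of cerebellar tissue in its value was not tested.

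Probe sets of a single gene could also disagree. The 6 genes with the smallest probe set p in which another tested set lay in the opposite direction were Luzp1, Acat1, Scarb2, Plekha5, Safb2 and Mark2. Luzp1, a protein of actin filaments and the centrosome, had -0.93 (SE 0.24) from 1 set and 0.088 (SE 0.10) from another. Plekha5, a phosphoinositide-binding protein, had -1.06 (SE 0.31) and 0.072 (SE 0.14). For Acat1, the mitochondrial thiolase of ketone metabolism, the 3 sets gave -0.46 (SE 0.12), -0.23 (SE 0.13) and 0.053 (SE 0.14). Scarb2, a lysosomal membrane protein, had -0.44 (SE 0.12) and 0.088 (SE 0.10). Safb2, which binds scaffold DNA and RNA, and Mark2, a kinase of microtubule-associated proteins, each had 1 set at 0.52 and 0.59 and another at -0.19 and -0.059. Foxp1, a transcription factor of striatal and cortical neurons, had 7 tested sets, of which 3 were higher at p under 0.05, at 1.10 (SE 0.35), 1.05 (SE 0.37) and 0.63 (SE 0.24), while 2 were lower, by up to -0.65 (SE 0.44). Which ends or splice forms these sets target was not analysed here.

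**Figure D4:**
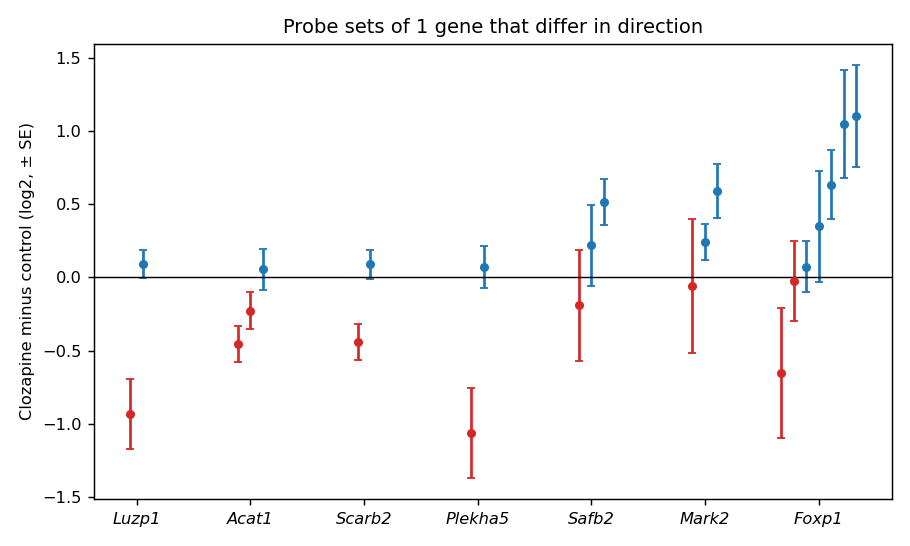
Clozapine minus control difference (log2, vertical axis) of each tested probe set of 7 genes, with SE; blue is higher and red lower with clozapine. Luzp1 and Plekha5 each have 1 set near -1 (-0.93 and -1.06) and 1 near 0 (0.088 and 0.072).

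Clozapine was set against haloperidol to see where the named genes differed between the drugs. This fit had no cluster block, and cluster C held 5 clozapine and 0 haloperidol arrays. Limma called 0 of 7576 genes (0%), the smallest adjusted p was 0.97, and 216 genes (2.85%) had an unadjusted p under 0.05. Of the 22 genes backed by more than 1 probe set, which the clozapine arrays had helped to choose, 4 were among them. Clozapine minus haloperidol was 0.40 (SE 0.16) for Mtss1 and 0.35 (SE 0.16) for Cotl1. It was -0.68 (SE 0.30) for Add2 and -0.91 (SE 0.41) for B3galt1. Mean levels over the arrays of clusters A, B and C were 6.81, 6.81 and 7.21 for Mtss1 and 6.57, 6.48 and 7.09 for Cotl1. They were 6.49, 6.81 and 5.28 for Add2 and 6.01, 6.38 and 4.46 for B3galt1. The part of cluster in these 4 differences was not tested. Haloperidol minus control, which shares the control arrays, was 0.028, -0.021, -0.13 and -0.033 for these 4 genes. In other genes of the 22 it was 0.45 for Dbp, 0.25 for Vat1, -0.49 for Rab3c, -0.59 for Plcb1 and -0.52 for Malat1, beside clozapine minus control values of 0.69, 0.56, -0.78, -0.83 and -1.91 from the same control arrays. For Malat1 clozapine minus haloperidol was -1.39 (SE 0.73), and for Mylip -0.46 (SE 0.14), with haloperidol minus control at -0.086. Ccnh, Rpn1 and Slc9a3r2 gave clozapine minus haloperidol values of 0.026, -0.025 and -0.021, each within 1 SE of 0.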

How the data were processed

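Expression was measured in forebrain RNA of 30 mice, 1 array per mouse, and the titles gave each array's group. The authors deposited log2 values made with GCRMA, 1 for each array and probe set, per the submitters' processing notes; its version is not given in the sources used here. GCRMA corrects background by probe sequence and pulls weak signals to a narrow low range, which shrinks differences of weakly expressed genes. The number of arrays limits the precision, and the median SE of a difference was 0.19.

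After 64 Affymetrix controls were dropped from 22690 probe sets, those with a mean of at least 4, 12944 in number, were fitted in R 4.3.3 by limma 3.58.1 (lmFit, then eBayes, 30 arrays, 27 residual degrees of freedom, two-sided, Benjamini-Hochberg over all features, calls at an adjusted p of 0.05). Names came from the platform annotation, updated through a RefSeq table. A single symbol was found for 20380 probe sets, several for 691 and none for 1555, and only the first kind was named. Gene values are means of all tested probe sets naming that gene. The fits were tested on simulated data with independent noise. Those data held no array clusters or outlying arrays, so the test says little about the fits under such structure.

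Named genes are those with 2 or more tested probe sets in 1 direction and at least 2 at unadjusted p under 0.05 (up to 12 per direction by gene p), the 2 members of each list with the smallest gene p, and 6 genes with disagreeing probe sets; Foxp1 and other genes outside the rule's order are named with their values seen. Circadian and neurotransmitter receptor genes were named only where the first part gave them. The comparison, members and 42 gene lists were chosen with earlier results of these data known. Alternatives covered the filter, normalization, array weights, array cluster, RNA quality, probe set choice and arrays left out. Coordinates are left out, the genome build being not given in the sources used here.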

Additional observations from a re-analysis of the deposited data

Results flagged for a closer look

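In 126 groups of arrays, formed by the named genes and the RNA quality measure, 11 had a highest or lowest array whose gap to the next exceeded the 95% critical value of Dixon's test, which chance does in about 1 of 20 groups. Control 1 was such an array for 5 of them. It was the lowest control for Pabpn1 at 9.30 (next 9.84), for Shank3 at 7.97 (next 9.56) and for Stard4 at 4.97 (next 6.17), and the highest for Mtss1 at 7.86 (next 6.94). Its 3' minus 5' difference of 4.09 was also far above the next control, 1.36.

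Clozapine 7 was the highest clozapine array for Slc9a3r2 at 6.52 (next 6.23) and the lowest for Cx3cr1 at 3.81 (next 6.34). Single arrays stood apart in 4 other groups. Control 4 was high for Cotl1 at 7.19, control 5 was low for Scarb2 at 8.59, clozapine 10 was high for Egr1 at 11.70, and clozapine 9 was low for Rarb at 5.25.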

How the results depend on the processing

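With each alternative but array weights alone, 0 probe sets and 0 genes were called. Array weights alone called 1731 probe sets and 874 genes, with 3994 and 2190 at an unadjusted p under 0.05 and 269 genes backed by several probe sets; the cause was not tested. Weights with array cluster as a block gave 1002, 568 and 40 for the last 3 counts, which are 563, 302 and 22 in the unweighted fit. The same 3 counts were 1074, 520 and 34 with no filter on low values, which tests more probe sets, 355, 189 and 12 with a mean of at least 6, which tests fewer, 897, 530 and 34 with array cluster as a block, 1069, 542 and 51 with RNA quality as a covariate, and 1470, 836 and 68 without control 1, haloperidol 2 and haloperidol 7. Backed genes numbered 34 with numbers 1 to 6 and 7 to 10 as a block and 13 without _x_at and _s_at probe sets. Leaving out 1 array at a time gave 383 to 868 probe sets, 203 to 451 genes and 10 to 40 backed genes. Without control 1 the counts were 868 probe sets, 446 genes and 40 backed genes.

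Reversed values arose at genes with disagreeing probe sets. Luzp1 was 0.088 and Plekha5 0.072 both with a mean of at least 6 and with the probe set of highest mean, choices that keep 1 of their 2 sets. Scarb2 was 0.088 and Mark2 -0.059 with the probe set of highest mean, and Mark2 was -0.0058 with array weights. Whether the replicate numbers pair the samples could not be told from the values. Same-numbered clozapine and control arrays had residual correlations of -0.50 to 0.70 (median 0.036), and 5 of 10 were over 0.1. The highest, 0.65 and 0.70, were for numbers 3 and 5, whose clozapine and control arrays are all in cluster A. Of 10 clozapine arrays 3 correlated best with their own number. With the replicate block 0 genes were called, 846 probe sets and 438 genes had an unadjusted p under 0.05, and 33 genes were backed, 17 of them among the 22. Of genes with an unadjusted p under 0.05, 52.6% were higher. The share was 58.7% with quantile normalization, 62.3% with no filter on low values, 60.9% with array cluster as a block, and 44.9% and 45.9% without control 6 and clozapine 4, so single arrays turn this balance.

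Bulk tissue, single arrays far from their groups and an array structure that is uneven between the groups limit what these 20 arrays show about any gene. Signals near background carry little information under GCRMA.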

Other observations

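Further genes were lower by more than 1 on the log2 scale in the clozapine arrays, all read from their values. Tenm4 and Tenm1, teneurins that guide synaptic partner choice, differed by -1.19 (SE 0.45) and -1.15 (SE 0.58). Potassium channel genes were Kcnh1 at -1.21 (SE 0.76) and Kcnma1 at -1.07 (SE 0.55). Chromatin and transcription genes were Kdm5a, a histone demethylase, at -1.30 (SE 0.47), Gatad2b of the NuRD complex at -1.17 (SE 0.46) and the repressor Zeb2 at -1.04 (SE 0.92). With array cluster as a block these became -0.50, -0.37, -0.56, -0.36, -0.27, -0.34 and -0.93 in the same order. Without clozapine 7 the values of Kcnh1, Kcnma1 and Gatad2b were -0.78, -0.63 and -0.78. No adjusted p passed the threshold for any of them in the unweighted limma fit.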
